A study of Homo sapiens with 18 samples.

Results

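MLLT3, FOCAD, KLHL9, MTAP, CDKN2A, CDKN2B, ELAVL2, CAAP1, PLAA and C9orf72 are 10 protein-coding genes of chromosome 9p around CDKN2A and MTAP. They are 10 of the 46218 gene IDs in the deposited table, matched by symbol, and all 10 were found. They were picked from measured values, because their counts were close to 0 in the libraries labelled U118-MG sgDDA1 and well above 0 in other groups. What those libraries show for the 10 genes is therefore given as a description, without a test. In GRCh38 with the GENCODE 29 annotation the genes run from chr9:20341665, the end of MLLT3, to chr9:27573866, the start of C9orf72, over 7.23 Mb.

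RNA sequencing was done on the human glioblastoma lines LN229, T98G and U118-MG. Each line carried a CRISPR guide, a control (sgCon) or one that targets DDA1 (sgDDA1), which gave 6 groups of 3 libraries and 18 libraries in all. DDA1 is a small subunit of CRL4 ubiquitin ligases, and the series title links its phosphorylation by mTORC1 to DNA repair and to the progression of glioblastoma. All cells grew in DMEM with 10% fetal bovine serum, and the labels name no drug, dose or time. The labels do not give the guide sequences, whether a group is 1 clone or a pool, or whether its libraries came from separate cultures. The p-values therefore rest on a spread between libraries that may be no more than technical.

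The short arm of chromosome 9 holds CDKN2A, which encodes 2 unrelated tumour suppressors through alternative first exons, p16INK4a and p14ARF. p16INK4a and the product of the neighbouring CDKN2B, p15INK4b, bind CDK4 and CDK6 and keep RB active, while p14ARF restrains MDM2 and so stabilises p53. Loss of this locus is frequent in glioblastoma, and MTAP, the enzyme that recycles methylthioadenosine in methionine salvage, is often lost with it because it lies next to CDKN2A.

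DDA1 (ENSG00000130311, chr19:17309518-17323301, plus strand) was read first as a check of the guides. Values are CPM, counts scaled to library size by TMM, in libraries 1, 2 and 3 of a group. DDA1 stood at 47.6, 49.2 and 48.8 CPM in LN229 sgCon and at 34.2, 32.1 and 34.8 CPM in LN229 sgDDA1 (log2 fold change -0.52, SE 0.05, edgeR adjusted p = 9.22e-11). In T98G it went from 61.4, 68.3 and 67.05 CPM to 56.6, 59.8 and 55.6 CPM (log2 fold change -0.20, SE 0.05, edgeR adjusted p = 0.00107). In both lines every sgDDA1 library lay below every sgCon library. With the U118-MG labels, DDA1 was 71.7, 56.00 and 50.02 CPM with sgCon and 66.3, 58.95 and 63.8 CPM with sgDDA1, and these values overlapped.

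Library totals were 44.9 to 55.1 M counts, and 94.1 M in LN229 sgCon 1. The libraries labelled U118-MG did not form 1 set. Across 18010 genes, the 3 libraries labelled U118-MG sgCon had a Pearson r of 0.923 to 0.959 with the mean log2 CPM of the LN229 sgCon libraries. With the mean of those labelled U118-MG sgDDA1 it was 0.701 to 0.73, a description of genes within libraries. With the mean of the LN229 sgDDA1 libraries it was 0.933 to 0.969, higher still than with LN229 sgCon. The 3 libraries labelled U118-MG sgDDA1 had an r of 0.82 to 0.823 with the T98G sgCon mean. Their r was 0.711 to 0.72 with the U118-MG sgCon mean and 0.669 to 0.678 with the LN229 sgCon mean. Whether cells or labels were exchanged was not tested, so a comparison of the groups labelled U118-MG may not be one of guides in 1 line. Library 1 of U118-MG sgCon also stood apart from libraries 2 and 3 of its group. Of 11 glial and glioma markers, 4 to 8 reached a mean of 1 CPM in each group, VIM and NES among them in every group. S100B and ALDH1L1 stayed at 0.278 CPM or less throughout. Other markers of the list differed between groups, in both directions. SOX2 was 18.6 CPM in LN229 sgCon and 17.6 CPM in U118-MG sgCon, but 0.126 CPM in T98G sgCon and 0.373 CPM in U118-MG sgDDA1. In the same order OLIG2 was 3.39, 10.3, 0.713 and 0.0517 CPM, and CD44 was 3.41, 61.6, 2350 and 1558 CPM. The sum of the fibroblast markers COL1A1, DCN and LUM was 2595 to 3200 CPM in the U118-MG sgDDA1 libraries, 232 to 337 CPM in U118-MG sgCon and 11.7 to 30.7 CPM in the LN229 and T98G libraries. The 3 leukocyte markers summed to 0.781 CPM or less in every library. The 3 endothelial markers summed to 7.995 to 11.99 CPM in U118-MG sgDDA1 and to 1.29 CPM or less elsewhere, and the 3 epithelial markers to 7.53 CPM or less. The part of these differences in the results below was not tested.

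In the libraries labelled U118-MG sgDDA1, counts of the 10 genes were at most 11 in any library. C9orf72, whose product works in autophagy and vesicle traffic, had 0 counts in all 3 libraries. Against 3 counts per library, the highest such floor being 0.0808 CPM, that is at least 252-fold lower than in LN229 sgCon, 169-fold lower than in T98G sgCon and 168-fold lower than in the libraries labelled U118-MG sgCon, which resemble LN229. CAAP1, an inhibitor of apoptosis, had 0, 3 and 0 counts, and ELAVL2, a neuronal RNA-binding protein, had 4, 2 and 0 counts. PLAA, a ubiquitin-binding partner of the segregase VCP, had 2, 1 and 9 counts. CDKN2B had 1, 5 and 4 counts and MLLT3, a reader of histone acylation in the super elongation complex, had 3, 5 and 8 counts. CDKN2A had 5, 6 and 9 counts. FOCAD, which binds the SKI complex of RNA decay, had 2, 11 and 4 counts. KLHL9, a substrate adaptor of CUL3 ubiquitin ligases, had 0, 6 and 11 counts. MTAP kept the most, with 11, 9 and 4 counts.

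The summed counts of a gene over the 3 libraries ranged from 0 for C9orf72 to 24 for MTAP. The residual MTAP level was 0.267% of that in LN229 sgCon (exact Poisson 95% interval of the counts, 0.171% to 0.397%). For the other genes with any count, it lay between 0.0712% for CAAP1 and 0.514% for CDKN2B. Such intervals and floors cover counting error only. In bulk RNA, fewer cells that express a gene and less RNA per cell cannot be told apart, and counts do not show whether DNA is present.

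**Figure D1:**
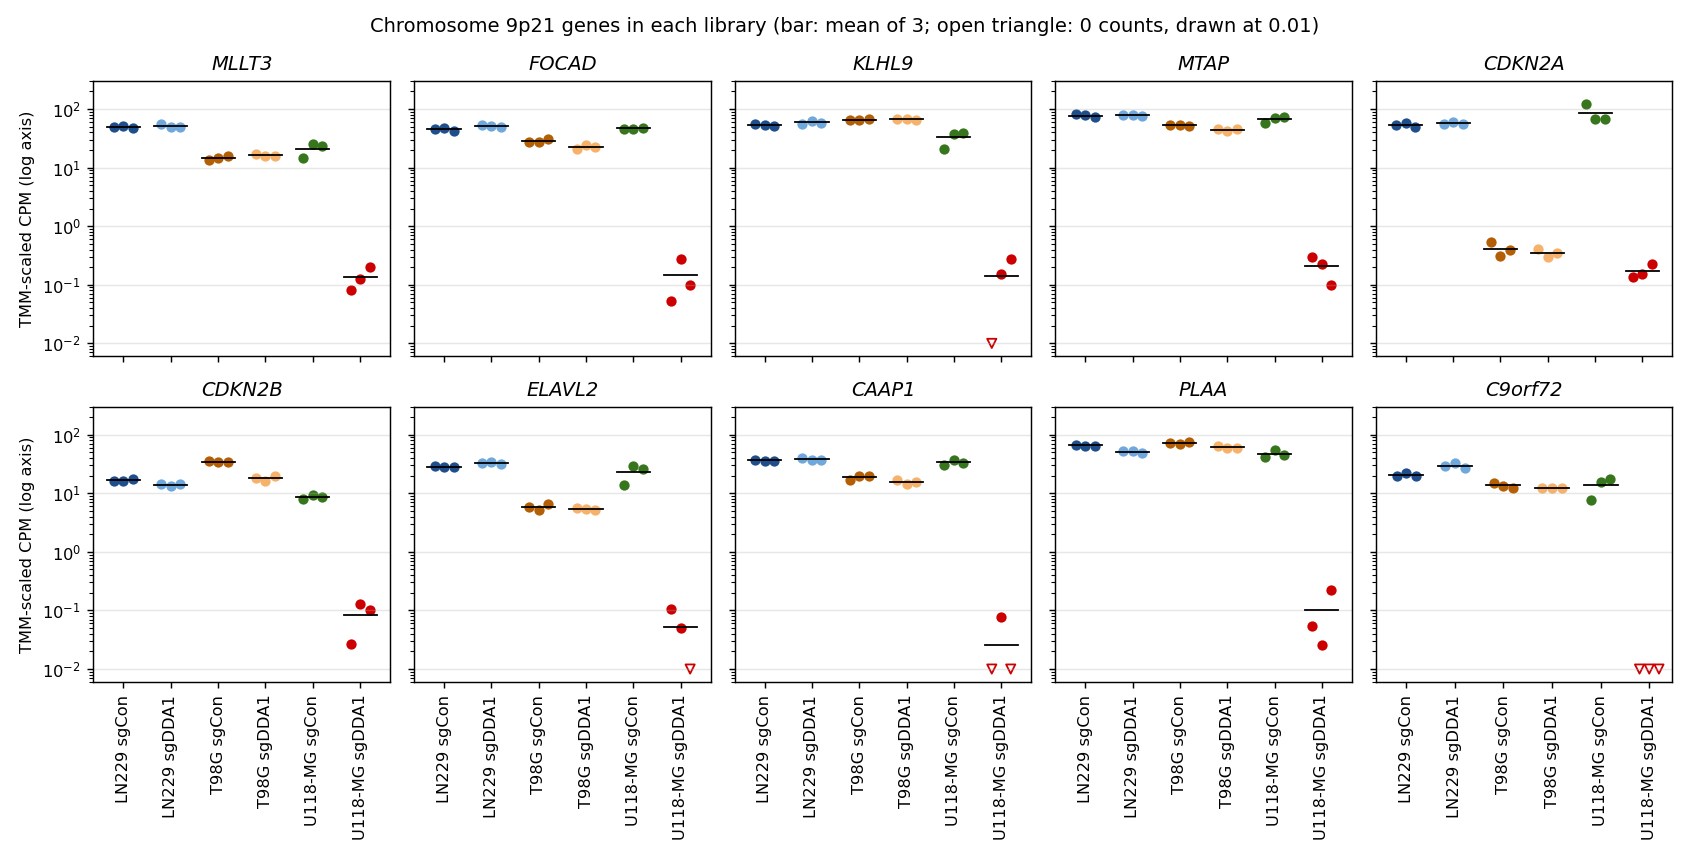
TMM-scaled CPM of the 10 genes in each of the 18 libraries, on a log axis, with 1 point per library and the genes in order along chromosome 9p. The libraries labelled U118-MG sgDDA1 lie below 0.3 CPM for every gene, and CDKN2A is also low in the 6 T98G libraries, at 0.303 to 0.540 CPM.

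Of 12414 genes with a mean of at least 1 CPM in each of the other 5 groups, 53 (0.427%) were under 0.1 CPM in all 3 libraries labelled U118-MG sgDDA1 and 284 (2.29%) were under 0.5 CPM. The 10 genes were chosen on this contrast, so their own count is no result. It was 2 under 0.1 CPM, namely CAAP1 and C9orf72, and 9 under 0.5 CPM, with CDKN2A left out because its mean in T98G was below 1 CPM. The stretch between the outer ends of MLLT3 and C9orf72 holds 66 other genes of the table. Of these, 4 had at least 1 CPM in each of the other 5 groups, and all 4 were under 0.5 CPM in U118-MG sgDDA1. They are CDKN2B-AS1, the antisense RNA of the CDKN2B locus, TUSC1, IFT74, a part of the intraflagellar transport complex, and MOB3B. Another gene of the stretch, the processed pseudogene CLIC4P1, was higher in U118-MG sgDDA1, at a mean of 2.28 CPM from 78, 108 and 80 counts, than in any other group, at 0.459 to 1.83 CPM. Reads of a processed pseudogene may belong to its parent gene, and the sources used here do not give how shared reads were counted.

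Outside the stretch, among genes 5 Mb to either side, 14 had at least 1 CPM in each of the other 5 groups and 0 of them were under 0.5 CPM in U118-MG sgDDA1. Towards the chromosome end, the first gene with at least 1 CPM in every group was RPS6, a ribosomal protein, at chr9:19375715-19380254 and at 605 CPM in U118-MG sgDDA1. Between RPS6 and MLLT3 lie ACER2, a ceramidase, at 0.348 CPM and ENSG00000260912 at 0.122 CPM, against 3.99 and 2.25 CPM in LN229 sgCon and 0.785 and 0.455 CPM in T98G sgCon. Beyond RPS6, SH3GL2, which encodes endophilin A1, was at 0.0337 CPM, against 5.40 CPM in LN229 sgCon and 0.131 CPM in T98G sgCon. PLIN2, also beyond RPS6 and among the 14, was at 1.18 CPM, against 23.6 to 129 CPM in the other groups. Low genes thus did not end at RPS6, but those beyond it lay among genes that were not low. Between RPS6 and SH3GL2, DENND4C was at 62.3 CPM, HAUS6 at 124 CPM and RRAGA at 74.8 CPM in U118-MG sgDDA1. ADAMTSL1 was at 266 CPM there, against 0.180 to 6.57 CPM in the other groups. Towards the centromere, the first gene with at least 1 CPM in every group was ACO1, the cytosolic aconitase and iron regulatory protein. ACO1 lies at chr9:32384603-32454769 and was at 613 CPM in U118-MG sgDDA1, against 60.1 to 75.5 CPM in the other groups. Chromosome 9 as a whole had 5 of 487 present genes under 0.1 CPM and 26 under 0.5 CPM. Of these, 4 and 13 lay in the stretch, with chosen genes among them, so the counts for the chromosome are no separate result.

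**Figure D2:**
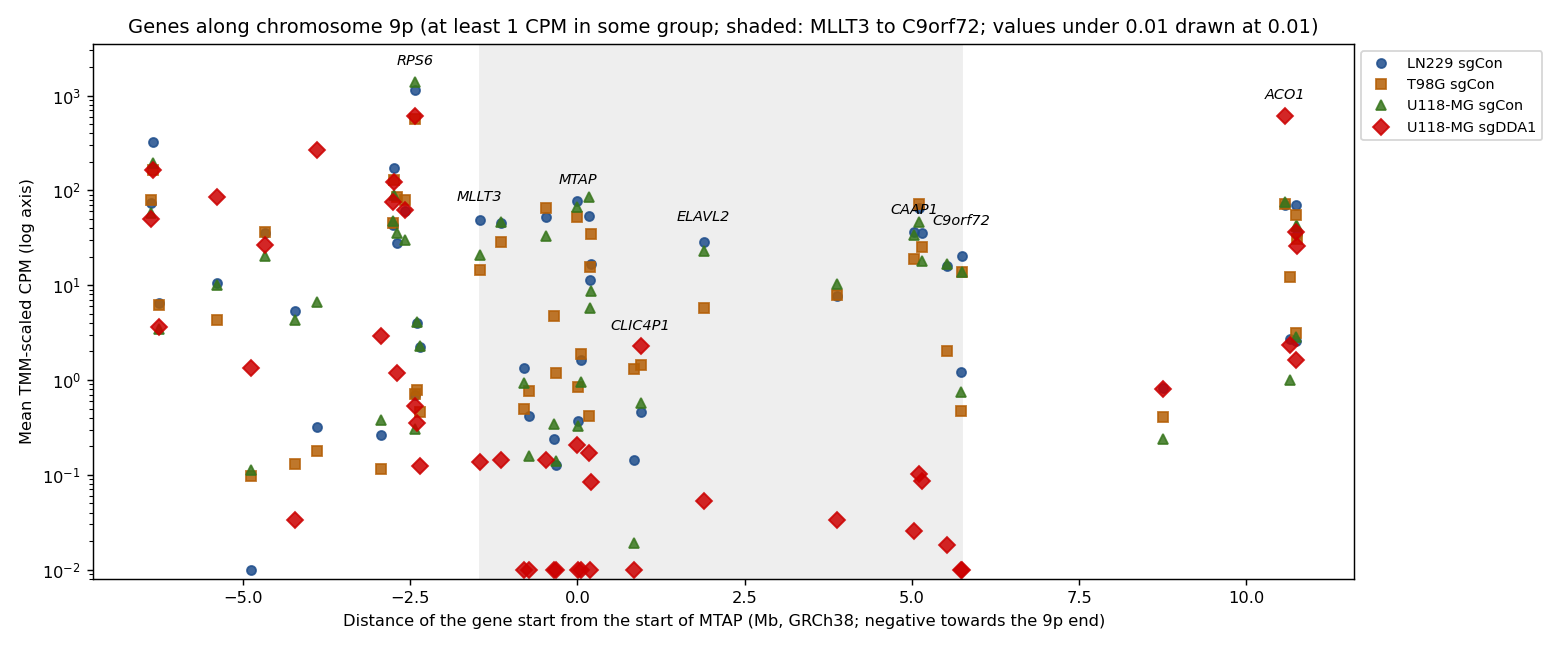
Mean TMM-scaled CPM, on a log axis, of genes along chromosome 9p against the distance of each gene's start from that of MTAP, in Mb, for 4 groups of 3 libraries. In the shaded stretch from MLLT3 to C9orf72 the points of U118-MG sgDDA1 lie under 0.5 CPM except CLIC4P1 at 2.28 CPM, while RPS6 at 605 CPM and ACO1 at 613 CPM lie outside it.

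Genes of the 10 do not all lie apart from other transcripts. CDKN2B-AS1 overlaps CDKN2A and CDKN2B on the other strand, IFT74 overlaps PLAA on the other strand, and MTAP overlaps an antisense gene and the pseudogene TUBB8P1. The sources used here do not give strandedness, so reads of such partners cannot be told apart. The counts are per gene and do not separate p16INK4a from p14ARF.

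With the control guide, T98G and LN229 differed in all 10 genes. In T98G 7 were lower and 3 higher, against 77.9% of 23082 tested genes called in either direction, 38.1% higher and 39.8% lower. The median log2 fold change of the 10, T98G over LN229, was -0.62, and that of all tested genes -0.05. The difference in CDKN2A was the largest of the 10. CDKN2A stood at 53.7, 57.5 and 50.2 CPM in LN229 sgCon and at 0.540, 0.311 and 0.390 CPM in T98G sgCon, from 28, 16 and 19 counts. That is 129-fold lower in T98G (log2 fold change -7.01, SE 0.11, edgeR adjusted p = 5.03e-33). The level in the U118-MG sgDDA1 libraries was 41.6% of this T98G level (25.4% to 64.2% from the U118-MG sgDDA1 counts alone). That interval takes the T98G mean as fixed and leaves out its counting error, so it is too narrow for the ratio. A supplier's description of LN229 names possible deletion of p16 and p14ARF, given here as background. All 6 libraries labelled LN229 held CDKN2A counts at 50.2 CPM or more, and the bearing of the description on them was not tested.

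The neighbours of CDKN2A were not near 0 in T98G. CDKN2B was 16.4, 16.3 and 17.5 CPM in LN229 sgCon and 35.3, 34.4 and 33.9 CPM in T98G sgCon, 2.07-fold higher in T98G (log2 fold change 1.05, SE 0.07, edgeR adjusted p = 1.06e-15). CDKN2B-AS1 was also higher, from 11.2 to 15.4 CPM (log2 fold change 0.45, SE 0.09, edgeR adjusted p = 2.06e-05). MTAP was 80.7, 77.5 and 74.1 CPM in LN229 sgCon and 53.1, 52.4 and 51.9 CPM in T98G sgCon (log2 fold change -0.56, SE 0.04, edgeR adjusted p = 8.24e-14). MTAP was thus 1.48-fold lower in T98G, and for MTAP and CDKN2B the libraries of the lines did not overlap.

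To show the sequence before these neighbours, the RefSeq promoters of MTAP, of CDKN2A at its upstream start and of CDKN2B are given in GRCh38.p14, 5′ to 3′. They hold the bases within 250 of the annotated start that no exon of a GENCODE 29 coding transcript covers, with each CG dinucleotide, the site of DNA methylation in mammals, in capitals.
MTAP, chr9:21802386-21802542, plus strand: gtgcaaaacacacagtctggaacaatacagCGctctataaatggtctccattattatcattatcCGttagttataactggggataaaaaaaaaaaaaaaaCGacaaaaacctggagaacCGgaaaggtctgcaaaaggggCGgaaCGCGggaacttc
CDKN2A, chr9:21995325-21995574, minus strand: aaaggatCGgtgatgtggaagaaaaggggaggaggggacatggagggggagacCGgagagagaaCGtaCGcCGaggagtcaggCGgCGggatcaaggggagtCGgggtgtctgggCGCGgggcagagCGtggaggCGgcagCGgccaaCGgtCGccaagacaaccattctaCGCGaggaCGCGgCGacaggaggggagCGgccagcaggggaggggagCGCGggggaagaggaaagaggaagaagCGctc
CDKN2B, chr9:22009364-22009555, minus strand: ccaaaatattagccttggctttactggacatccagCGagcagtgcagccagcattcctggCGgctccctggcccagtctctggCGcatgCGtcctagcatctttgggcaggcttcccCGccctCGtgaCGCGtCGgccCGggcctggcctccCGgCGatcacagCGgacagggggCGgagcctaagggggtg
The CDKN2A sequence has 24 CG in 250 bases, that of CDKN2B has 14 in 192 bases and that of MTAP has 7 in 157 bases. Over all 35116 promoter windows of 250 bases, the median was 11 CG, 52.2% held 10 or more and 93.9% held at least 1. The stretches printed for MTAP and CDKN2B are shorter than such windows. Their full windows of 250 bases held 11 CG for MTAP and 18 for CDKN2B. CDKN2A had 2 windows, with 24 CG in that printed and 20 in the other. RefSeq windows were matched for 9 of the 10 genes, CAAP1 having none, and 15 of their 16 windows held 10 or more. A CG count is the same on both strands. The data hold no methylation, and the count describes the sequence alone.

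Among the other genes, ELAVL2 and MLLT3 were the lowest in T98G relative to LN229. ELAVL2 was 28.96, 27.9 and 28.1 CPM in LN229 sgCon and 5.79, 5.18 and 6.47 CPM in T98G sgCon, 4.88-fold lower (log2 fold change -2.29, SE 0.08, edgeR adjusted p = 1.51e-23). MLLT3 was 49.3, 50.8 and 47.2 CPM and 13.3, 14.7 and 15.6 CPM, 3.38-fold lower (log2 fold change -1.76, SE 0.06, edgeR adjusted p = 6.08e-23). CAAP1 with -0.94 (SE 0.06), FOCAD with -0.65 (SE 0.06) and C9orf72 with -0.58 (SE 0.08) on the log2 scale were lower by smaller factors, with edgeR adjusted p of 4.53e-08 or less. KLHL9 was higher in T98G, at 63.7, 65.9 and 67.6 CPM against 54.4, 52.5 and 50.4 CPM (log2 fold change 0.33, SE 0.04, edgeR adjusted p = 7.9e-08). PLAA was 71.8, 70.4 and 74.5 CPM in T98G sgCon and 67.6, 64.9 and 63.6 CPM in LN229 sgCon (log2 fold change 0.14, SE 0.04, edgeR adjusted p = 0.00268), but its direction turned with scaling. By library totals alone its mean was 69.2 CPM in T98G and 72.2 CPM in LN229. KLHL9 and PLAA lost their calls with all 18 libraries in 1 fit, at adjusted p of 0.116 and 0.295.

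Per length, in the deposited FPKM, the order of the genes differed between lines. In LN229 sgCon the highest levels were those of CDKN2A (15.3 ± 0.925 FPKM, SD, n = 3), PLAA (13.6 ± 0.206) and CAAP1 (12.7 ± 0.0411), and the lowest that of C9orf72 (3.21 ± 0.197). In T98G sgCon PLAA (13.0 ± 0.355 FPKM), KLHL9 (11.0 ± 0.328) and CDKN2B (8.27 ± 0.164) came first, and CDKN2A last at 0.102 ± 0.0285. In U118-MG sgCon CDKN2A was again highest (23.6 ± 7.02 FPKM) and C9orf72 lowest (2.13 ± 0.887), with CDKN2B next at 2.36 ± 0.294. In that group CAAP1 (11.5 ± 1.62 FPKM) and PLAA (9.54 ± 1.66) lay within their spread of each other, as did MTAP (5.03 ± 0.881) and FOCAD (5.02 ± 0.361).

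The DDA1 guide in LN229 was followed by 4 higher and 2 lower genes of the 10. Over all 23082 tested genes 50.4% were called, 28.9% higher and 21.5% lower, so the share among the 10 was near the background. Their median log2 fold change was 0.08, beside 0.07 for all tested genes. C9orf72 moved most, from 19.7, 21.8 and 19.7 CPM to 28.7, 32.5 and 26.7 CPM, 1.44-fold (log2 fold change 0.53, SE 0.07, edgeR adjusted p = 2.67e-07). PLAA fell from 67.6, 64.9 and 63.6 CPM to 52.1, 52.3 and 49.5 CPM (log2 fold change -0.35, SE 0.04, edgeR adjusted p = 2.31e-08). CDKN2B fell from 16.4, 16.3 and 17.5 CPM to 14.6, 13.3 and 14.1 CPM (log2 fold change -0.26, SE 0.07, edgeR adjusted p = 0.00254). In these 3 genes no sgDDA1 library reached the range of the sgCon libraries.

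FOCAD, ELAVL2 and KLHL9 rose by less. FOCAD went from 44.7, 48.2 and 42.1 CPM to 53.8, 50.4 and 49.9 CPM (log2 fold change 0.19, SE 0.06, edgeR adjusted p = 0.00554), and without library 3 of LN229 sgCon its adjusted p was 0.0616. ELAVL2 reached 32.2, 33.7 and 31.1 CPM (log2 fold change 0.19, SE 0.07, edgeR adjusted p = 0.0146), and it passed the threshold in 9 of 13 alternatives. Its adjusted p was 0.0502 without library 3 of LN229 sgCon and 0.0745 without library 2 of LN229 sgDDA1. KLHL9 reached 56.00, 62.7 and 58.02 CPM (log2 fold change 0.17, SE 0.04, edgeR adjusted p = 0.00195). CDKN2A was 54.6, 60.3 and 55.6 CPM in LN229 sgDDA1 and its libraries overlapped those of sgCon (log2 fold change 0.08, SE 0.06, edgeR adjusted p = 0.259). MTAP was 80.1, 78.4 and 77.3 CPM and overlapped as well (log2 fold change 0.02, SE 0.04, edgeR adjusted p = 0.684). MLLT3 at 0.07 (SE 0.06) and CAAP1 at 0.06 (SE 0.06) on the log2 scale did not pass the threshold either. With all 18 libraries in 1 fit the calls of FOCAD, ELAVL2, KLHL9 and CDKN2B in LN229 were lost, at adjusted p of 0.0775 to 0.532.

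The DDA1 guide in T98G was followed by 1 higher and 5 lower genes of the 10, where 43.4% of all tested genes were called, 21.6% higher and 21.8% lower. The median of the 10 was -0.23 on the log2 scale, beside 0.00 for all tested genes. CDKN2B fell from 35.3, 34.4 and 33.9 CPM to 18.2, 16.1 and 19.5 CPM, 1.92-fold (log2 fold change -0.94, SE 0.07, edgeR adjusted p = 2.35e-13), a call that held in 13 of 13 alternatives. It was the largest change among the 10 in either line. CDKN2B-AS1 on the opposite strand stood at 15.4 CPM and 15.8 CPM and was not called (log2 fold change 0.04, SE 0.09, edgeR adjusted p = 0.768). MTAP fell from 53.1, 52.4 and 51.9 CPM to 46.2, 42.3 and 44.96 CPM (log2 fold change -0.24, SE 0.04, edgeR adjusted p = 3.72e-05).

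FOCAD fell from 27.7, 27.3 and 30.9 CPM to 20.8, 24.3 and 22.9 CPM (log2 fold change -0.34, SE 0.06, edgeR adjusted p = 4.31e-05). PLAA fell from 71.8, 70.4 and 74.5 CPM to 63.7, 59.4 and 59.9 CPM (log2 fold change -0.24, SE 0.04, edgeR adjusted p = 1.69e-05). CAAP1 fell from 17.00, 20.05 and 19.5 CPM to 16.7, 14.5 and 15.4 CPM (log2 fold change -0.28, SE 0.07, edgeR adjusted p = 0.00112). In MTAP, FOCAD, PLAA and CAAP1 all sgDDA1 libraries lay below all sgCon libraries. MLLT3 was 13.3, 14.7 and 15.6 CPM and 17.3, 15.5 and 16.01 CPM (log2 fold change 0.16, SE 0.07, edgeR adjusted p = 0.05, just under the threshold before rounding), its libraries overlapped, and 12 of 13 alternatives did not call it, among them the fits without library 1 (0.288) or 2 (0.0663) of sgCon and without library 1 (0.31), 2 (0.0774) or 3 (0.12) of sgDDA1. CDKN2A was 0.408, 0.303 and 0.355 CPM in T98G sgDDA1, from 19, 14 and 17 counts (log2 fold change -0.22, SE 0.28, edgeR adjusted p = 0.56), and a change was not detectable at this depth. KLHL9 at 0.03 (SE 0.05), ELAVL2 at -0.11 (SE 0.09) and C9orf72 at -0.15 (SE 0.08) on the log2 scale did not pass the threshold. With all 18 libraries in 1 fit MTAP, CAAP1 and PLAA were not called in T98G, at adjusted p of 0.102 to 0.16, nor was DDA1, at 0.197.

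The response to the guide itself differed between the lines in 6 of the 10 genes, by the interaction term of the fit, where 39.2% of all tested genes differed. In all 6 the response was lower in T98G than in LN229, and over all tested genes 20.9% were lower and 18.3% higher. The median difference of the 10 was -0.30 on the log2 scale, beside -0.02 for all tested genes. CDKN2B differed by -0.69 on the log2 scale (SE 0.10, edgeR adjusted p = 6.15e-07), C9orf72 by -0.68 on the log2 scale (SE 0.11, edgeR adjusted p = 6.38e-06) and FOCAD by -0.53 on the log2 scale (SE 0.09, edgeR adjusted p = 5.71e-06). CAAP1 differed by -0.34 on the log2 scale (SE 0.09, edgeR adjusted p = 0.00317) and MTAP by -0.26 on the log2 scale (SE 0.06, edgeR adjusted p = 0.00073). ELAVL2 differed by -0.30 on the log2 scale (SE 0.11, edgeR adjusted p = 0.0285), which was past the threshold in 10 of 18 alternatives. Leaving out 1 library took its adjusted p above the threshold for 6 of the 12 libraries, with values from 0.0532 to 0.143. FOCAD rose in LN229 and fell in T98G, and PLAA fell in both, with a difference of 0.11 on the log2 scale (SE 0.06, edgeR adjusted p = 0.178). KLHL9 differed by -0.14 on the log2 scale (SE 0.06, edgeR adjusted p = 0.0846), and had an adjusted p of 0.0336 without library 1 of LN229 sgDDA1. DDA1 itself fell less in T98G, by a difference of 0.33 on the log2 scale (SE 0.07, edgeR adjusted p = 0.000209). With all 18 libraries in 1 fit the differences of MTAP, CAAP1, ELAVL2, C9orf72 and DDA1 did not pass the threshold, at adjusted p of 0.101 to 0.498.

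**Figure D3:**
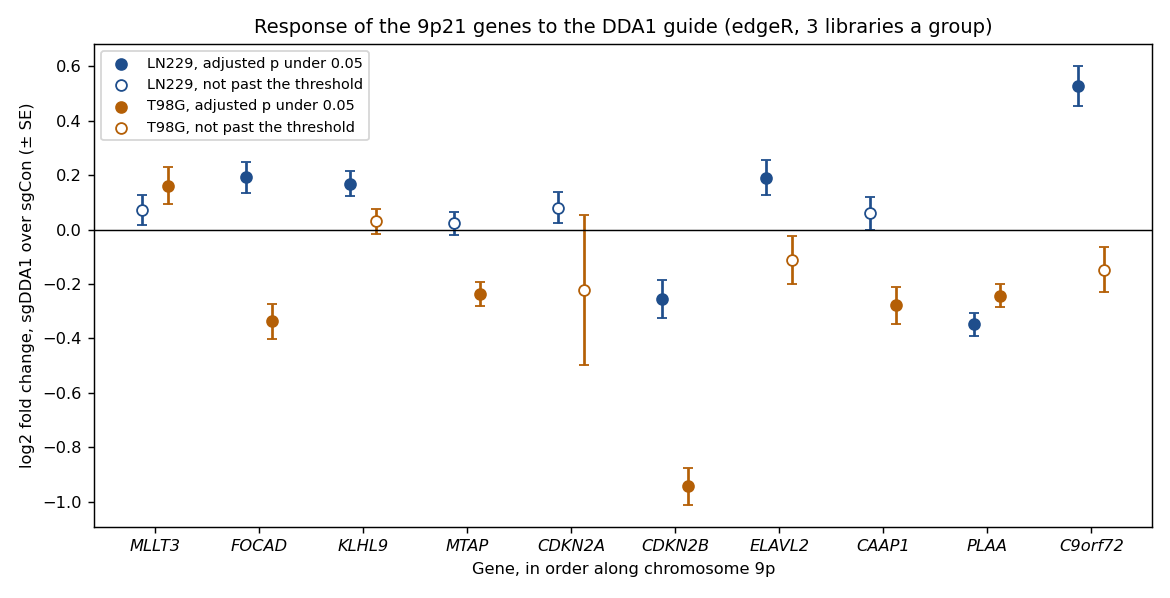
Log2 fold change of each gene with the DDA1 guide over the control guide in LN229 and T98G, as edgeR estimates from 3 libraries a group, with bars of 1 SE and filled points for an adjusted p under 0.05. C9orf72 in LN229 is the highest point at 0.53 and CDKN2B in T98G the lowest at -0.94.

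The libraries labelled U118-MG sgCon were compared with LN229 sgCon, the libraries of the same guide in the line they resemble. This comparison and that of T98G share the LN229 sgCon libraries. Of the 10 genes 4 were lower and 0 higher, where 36.9% of 20892 tested genes were called, 15% lower and 21.9% higher. The median of the 10 was -0.49 on the log2 scale, beside 0.04 for all tested genes. MLLT3 was 14.6, 24.9 and 23.3 CPM against 49.3, 50.8 and 47.2 CPM in LN229 sgCon (log2 fold change -1.32, SE 0.21, edgeR adjusted p = 0.00246). CDKN2B was 8.00, 9.41 and 8.68 CPM against 16.4, 16.3 and 17.5 CPM (log2 fold change -1.04, SE 0.13, edgeR adjusted p = 0.000804). PLAA was 41.1, 53.8 and 45.4 CPM against 67.6, 64.9 and 63.6 CPM (log2 fold change -0.57, SE 0.14, edgeR adjusted p = 0.0159), and KLHL9 was 20.99, 38.1 and 39.6 CPM against 54.4, 52.5 and 50.4 CPM (log2 fold change -0.76, SE 0.24, edgeR adjusted p = 0.0391). In these 4 genes every library labelled U118-MG sgCon lay below every LN229 sgCon library. In LN229 sgDDA1, the group with the higher r, PLAA was 52.1, 52.3 and 49.5 CPM and overlapped U118-MG sgCon. For MLLT3, CDKN2B and KLHL9 the U118-MG sgCon libraries lay below those of LN229 sgDDA1 as well. Leaving out LN229 sgCon library 1, 2 or 3 lowered the calls over all genes to 4032, 4390 and 4262 and took KLHL9 to an adjusted p of 0.0857 to 0.0976 and PLAA to 0.0547 to 0.0617, while MLLT3 and CDKN2B kept their calls.

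Library 1 of U118-MG sgCon held the lowest value of its group for 9 of the 10 genes and the highest for CDKN2A. CDKN2A was 122, 67.7 and 68.4 CPM, above all LN229 sgCon libraries, and did not pass the threshold (log2 fold change 0.57, SE 0.21, edgeR adjusted p = 0.0645). Without library 1 its adjusted p was 0.000981 at a log2 fold change of 0.24, and over all genes 11476 were called in place of 7711. MTAP was 57.7, 71.3 and 72.8 CPM (log2 fold change -0.29, SE 0.14, edgeR adjusted p = 0.129), and without library 1 its log2 fold change was -0.20 with an edgeR adjusted p of 0.00166. C9orf72 was 7.78, 15.7 and 17.4 CPM (log2 fold change -0.67, SE 0.28, edgeR adjusted p = 0.0937) and had an adjusted p of 0.000423 at -0.40 without library 1. ELAVL2 was 14.1, 28.6 and 25.8 CPM (log2 fold change -0.40, SE 0.25, edgeR adjusted p = 0.239) and had an adjusted p of 0.0471 at -0.16 without library 1. In CPM, scaled over 18 libraries, libraries 2 and 3 held ELAVL2 at 101% and 90.9% of the LN229 sgCon mean. The fit scales its own libraries, so differences this small may turn on scaling, which was not tested without library 1. FOCAD was 46.02, 46.4 and 47.5 CPM and CAAP1 30.7, 37.5 and 32.3 CPM, and for both the libraries overlapped those of LN229 sgCon.

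**Figure D4:**
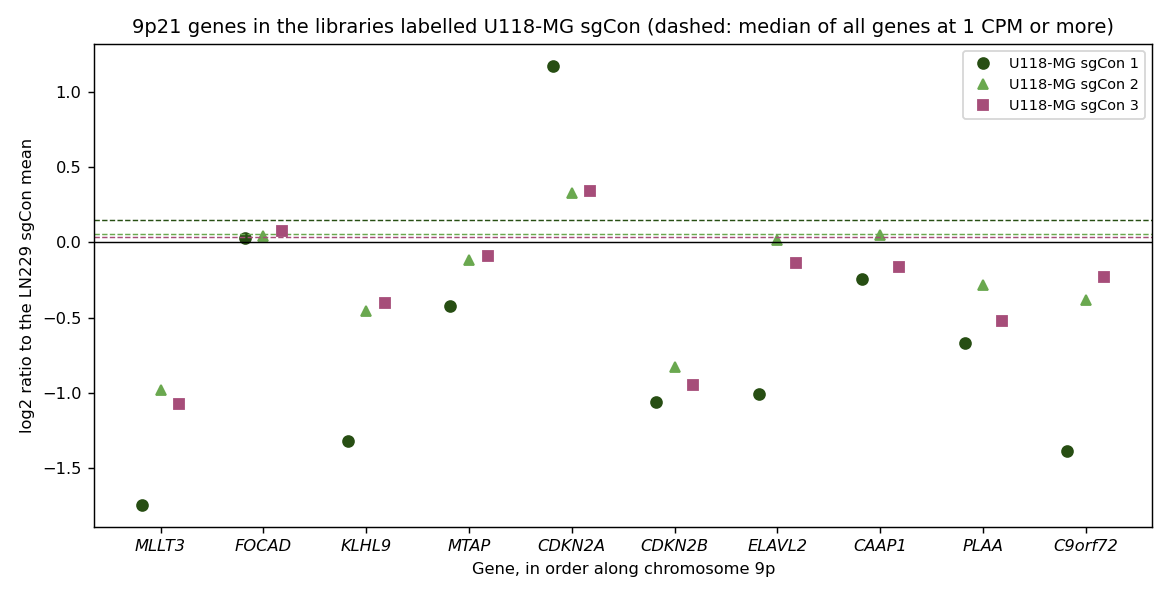
Log2 ratio of each library labelled U118-MG sgCon to the mean of the 3 LN229 sgCon libraries, per gene, with dashed lines at the median of all genes at 1 CPM or more in the library's colour. Library 1 lies lowest for every gene except CDKN2A, where it lies highest at 1.18, and the dashed lines lie at 0.15, 0.06 and 0.04.

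Genes that work with the 10 were read from 3 lists, whose background is the share of called genes and the median over all tested genes given above for each comparison. A list of 24 genes of methionine salvage and polyamines covers the pathway of MTAP and genes linked to it, PRMT5 and RIOK1 among them. With the DDA1 guide in LN229, 4 of the 24 were higher and 15 lower, with a median log2 fold change of -0.21. ADI1, the dioxygenase that acts after MTAP in salvage, fell from 107 to 36.9 CPM (log2 fold change -1.54, SE 0.05, edgeR adjusted p = 1.51e-21), and the spermidine synthase SRM fell from 85.3 to 51.7 CPM (log2 fold change -0.72, SE 0.05, edgeR adjusted p = 8.38e-15). SAT1, which acetylates polyamines, rose from 10.5 to 20.7 CPM (log2 fold change 0.99, SE 0.07, edgeR adjusted p = 7.57e-14). In T98G 4 were higher and 12 lower, with a median of -0.12. There the ornithine decarboxylase ODC1 fell from 171 to 77.5 CPM (log2 fold change -1.14, SE 0.05, edgeR adjusted p = 9.78e-20). MAT2A, which makes S-adenosylmethionine, rose from 550 to 908 CPM in T98G (log2 fold change 0.72, SE 0.03, edgeR adjusted p = 4.7e-18) and fell from 353 to 282 CPM in LN229, a difference of 1.05 on the log2 scale (SE 0.05, edgeR adjusted p = 5.63e-18). With the control guide 8 of the 24 were higher and 14 lower in T98G than in LN229, with a median of -0.41. Among them PRMT5, the arginine methyltransferase that methylthioadenosine inhibits, was 3.15-fold lower (log2 fold change -1.66, SE 0.04, edgeR adjusted p = 1.2e-26), and its partner RIOK1 4.21-fold lower (log2 fold change -2.07, SE 0.04, edgeR adjusted p = 1.55e-29). In U118-MG sgCon 6 were higher and 7 lower than in LN229 sgCon, with a median of 0.01.

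Of 27 genes of CDK4/6, RB and p53 control, 11 were higher and 11 lower with the DDA1 guide in LN229 (median -0.07), and 5 were higher and 14 lower in T98G (median -0.14). The CDK inhibitor CDKN1A rose from 14.7 to 23.03 CPM in LN229 (log2 fold change 0.64, SE 0.06, edgeR adjusted p = 3.13e-11) and fell from 72.4 to 53.6 CPM in T98G, a difference of -1.08 on the log2 scale (SE 0.08, edgeR adjusted p = 2.73e-13). Cyclin D1, CCND1, fell from 446 to 255 CPM in T98G (log2 fold change -0.81, SE 0.04, edgeR adjusted p = 1.55e-18). Cyclin E2, CCNE2, fell in LN229 from 27.7 to 18.3 CPM (log2 fold change -0.60, SE 0.06, edgeR adjusted p = 3.96e-10) and in T98G from 48.8 to 32.6 CPM (log2 fold change -0.58, SE 0.06, edgeR adjusted p = 3.41e-10). With the control guide 14 were higher and 10 lower in T98G than in LN229, with a median of 0.40. CDKN2C, which encodes the related inhibitor p18INK4c on chromosome 1, was 82.8 CPM in LN229 and 0.327 CPM in T98G (log2 fold change -7.96, SE 0.10, edgeR adjusted p = 7.7e-36), and cyclin D2, CCND2, was 75.9 CPM and 0.388 CPM (log2 fold change -7.60, SE 0.11, edgeR adjusted p = 5.63e-34). CCND1 was 4.97-fold higher in T98G (log2 fold change 2.31, SE 0.04, edgeR adjusted p = 3.12e-32). In U118-MG sgCon 7 of the 27 were higher and 5 lower than in LN229 sgCon, with a median of -0.04.

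Of 24 partners of the 10 proteins 22 were tested. With the DDA1 guide 1 was higher and 12 lower in LN229 (median -0.13), and 7 were higher and 9 lower in T98G (median 0.03). The response differed between the lines in 17 of the 22, with 14 higher in T98G and 3 lower (median 0.21). VCP, the segregase that PLAA serves, fell from 272 to 164 CPM in LN229 (log2 fold change -0.72, SE 0.04, edgeR adjusted p = 2.02e-16), and its difference was 0.49 on the log2 scale (SE 0.05, edgeR adjusted p = 6.66e-09). CUL3, the scaffold for KLHL9, fell from 129 to 95.96 CPM in LN229 (log2 fold change -0.43, SE 0.04, edgeR adjusted p = 7.7e-11). SMCR8 and WDR41 form a complex with C9orf72. SMCR8 fell in LN229 from 72.97 to 53.99 CPM (log2 fold change -0.43, SE 0.04, edgeR adjusted p = 1.82e-10), while WDR41 rose in LN229, at 0.29 (SE 0.04) on the log2 scale, and fell in T98G, at -0.30 (SE 0.04), a difference of -0.59 on the log2 scale (SE 0.06, edgeR adjusted p = 7.29e-10). ELL2, an elongation factor of the complex that holds MLLT3, rose in T98G from 305 to 500 CPM (log2 fold change 0.71, SE 0.04, edgeR adjusted p = 4.06e-16). With the control guide 11 of the 22 were higher and 10 lower in T98G than in LN229 (median 0.02). KLHL13, the adaptor that works with KLHL9 in mitosis, was 31.7 CPM in LN229 and 0.178 CPM in T98G (log2 fold change -7.46, SE 0.15, edgeR adjusted p = 6.89e-30). In U118-MG sgCon 4 were higher and 3 lower than in LN229 sgCon (median -0.08).

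Other genes across the genome had a similar profile over the libraries. Likeness was taken as Pearson r between log2 CPM of a gene and the mean standardised profile of the 9 genes present in the other groups, over 18 libraries and among 12414 genes. The most alike outside the 10 were PPM1E (r = 0.995, chromosome 17), VASH2 (0.995, chromosome 1), HOXD4 (0.995, chromosome 2), SIM2 (0.994, chromosome 21) and ATP11A (0.993, chromosome 13). Their mean in U118-MG sgDDA1 was 0.0506 to 0.377 CPM. The r values are descriptions over 18 libraries from 6 groups that share 1 scaling. The 9 genes were picked for counts near 0 in U118-MG sgDDA1, and the 12414 genes had to be present in the other groups. A gene low in U118-MG sgDDA1 thus tends to a high r by this choice, so r is no further result. The same measure was 0.956 for ELAVL2 and 0.997 for C9orf72, which are themselves part of the profile.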

How the data were processed

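Per the labels' protocols, RNA was extracted with Trizol and sequenced on 18 libraries. Per the submitters' processing notes the authors used fastp 0.19.6, STAR 2.4.0, GRCh38, HTSeq 0.12.4 and DESeq2. Strandedness and poly(A) selection are not given in the sources used here. The deposited table holds raw counts and FPKM values. The deposited FPKM equal count over gene length and library total, with 1 length per gene. Of 46218 IDs, 14105 have no symbol, 44443 were found in GENCODE 29, and 0 value columns lacked a sample. Other deposited tables were not used here.

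Analysis began from the counts, in R 4.3.3 with edgeR 4.0.16: filterByExpr, TMM, the quasi-likelihood F-test and Benjamini-Hochberg adjustment over all tested genes, with a threshold of 0.05. The SE is the log2 fold change over the root of F. LN229 and T98G were fitted as 12 libraries, because the 10 genes were picked on libraries labelled U118-MG, and U118-MG sgCon with LN229 sgCon as 6 libraries. CPM levels use TMM over 18 libraries. A floor is 3 counts in a library, and intervals are exact Poisson at 95%. Alternatives used DESeq2 1.42.0, other filters and scalings, a replicate block, other sets of libraries and counts halved, since 57.4% to 63.7% of counts from 1 to 19 were even. The procedure was tested on simulated counts.

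The 10 genes, the gene lists and the tests were chosen with earlier results of these data known. Named were DDA1, the 10 genes, the border genes and exceptions of the stretch, up to 4 called genes of a list per comparison by smallest p, and the 5 genes most alike in profile. CDKN2B-AS1, the genes under 0.5 CPM in the stretch, ACER2, ENSG00000260912, SH3GL2, PLIN2, DENND4C, HAUS6, RRAGA and ADAMTSL1 were named after their values were seen. So were SOX2, OLIG2 and CD44 among the markers, and values of a listed gene repeated in a further comparison. Promoter sequences are from RefSeq, GRCh38.p14.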

Additional observations from a re-analysis of the deposited data

Results flagged for a closer look

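For 6 of the 10 genes the response to the DDA1 guide differed between T98G and LN229 by the interaction term of edgeR, on the log2 scale as T98G minus LN229. The differences were -0.69 for CDKN2B, -0.68 for C9orf72, -0.53 for FOCAD, -0.34 for CAAP1, -0.30 for ELAVL2 and -0.26 for MTAP. All 6 were tested beside 39.2% of all genes that differed in the same test. The fall of DDA1 itself was smaller in T98G than in LN229, and its part in these differences was not tested.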

How the results depend on the processing

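Over the 10 genes and DDA1, 690 alternative values kept their direction and side of the threshold, 44 fell below it, 16 passed it and 9 turned direction. PLAA in T98G over LN229, a called value, also turned when levels were scaled by library totals alone, which was not fitted as an alternative. MTAP in LN229 with the DDA1 guide turned to -0.0061 with no filter on low counts, -0.0293 with counts halved, -0.0108 without LN229 sgCon replicate 3 and -0.0175 with only the 6 libraries compared, and was at most 0.0495 with 1 replicate left out. KLHL9 in T98G turned to -0.0023 with counts halved and -0.01 without T98G sgDDA1 replicate 2, and was at most 0.0511 with another left out. CDKN2A in T98G turned to 0.0214 without T98G sgCon replicate 1, against -0.3888 without replicate 2. FOCAD in U118-MG sgCon over LN229 sgCon turned to 0.007 without LN229 sgCon replicate 2 and to 0.0507 with all 18 libraries, and was -0.1072 without LN229 sgCon replicate 3. With all 18 libraries in 1 fit the counts of called genes were 7185 for the guide in LN229, 5402 for the guide in T98G, 4227 for the difference of responses and 12127 for U118-MG sgCon over LN229 sgCon, against 11632, 10013, 9044 and 7711. Calls lost in that fit stand beside the genes above.

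Leaving out 1 replicate gave 10397 to 11005 called genes for LN229, 9204 to 9363 for T98G, 8421 to 8732 for the difference, 17548 to 17870 for T98G over LN229 and 4032 to 11476 for U118-MG sgCon over LN229 sgCon. Genes under 0.1 CPM in U118-MG sgDDA1 and present elsewhere were 53, and 52 to 78 with 1 replicate left out. They were 284 at a limit of 0.5 CPM, 90 at a presence of 0.5 CPM and 84 with unscaled CPM. The 10 genes gave 2 of them, 2 to 3 with 1 replicate left out and 9 at 0.5 CPM. The median of all genes, T98G over LN229 with the control guide, was -0.06 by TMM, -0.08 by DESeq2 size factors and -0.26 by library totals.

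Groups share replicate numbers, and whether these pair the libraries is not known. Deviations of same-numbered libraries correlated by -0.04 to 0.04, over pairs of groups within and between lines, which does not settle it. With the replicate block 11449 genes were called for LN229, 9797 for T98G, 8806 for the difference, 17816 for T98G over LN229 and 7197 for U118-MG sgCon over LN229 sgCon. The block took MLLT3 in T98G to an adjusted p of 0.0606 and C9orf72 in U118-MG sgCon to 0.0368. Every LN229 sgCon library deviated most like the LN229 sgDDA1 library of its own number, though with r of only 0.0287 to 0.0358. In T98G only library 3 did so. Matches this weak come from the data, not from the design, and do not settle pairing. Depth limits CDKN2A in T98G, at 14 to 28 counts, and all 10 genes in U118-MG sgDDA1.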
